A study of Rattus norvegicus with 38 samples.

Results

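Of the 3417 differentially methylated regions (DMRs) deposited for rat buccal swabs, 589 (17.2%) were a single CpG whose methylation averaged at least 60% and under 75% at postnatal day 2 (P2). A DMR was taken when its start and end lay 1 base apart and its mean over the 19 P2 samples fell in that interval. The P2 mean over all pups therefore chose these sites and is given as a description, without a test. The rule did not use the difference between groups of pups at P2. All single-CpG DMRs numbered 2510, of which 586 averaged 45 to 60% and 328 averaged 75% or more at P2, and another 205 DMRs of 60 to 75% spanned more than a single CpG.

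The swabs came from 19 Sprague Dawley pups, each sampled at P2 and again at P10, which gave 38 samples. Control pups (n = 10) were reared in cages with standard bedding, and pups of the limited bedding and nesting (LBN) group (n = 9) were reared with sparse bedding and little nesting material, a model of early-life adversity, between the 2 swabs. The P2 swab preceded the assignment to cages, so a P2 sample labelled LBN was from a pup not yet exposed. Pups of several litters were mixed before assignment, and the sex of each pup was not given in the sources used here. Rearing was applied to whole cages, each with a dam and her assigned pups, and the dam of each pup was not given. A difference between cages and a difference of rearing therefore cannot be told apart. In cohort 1 there were 6 control and 5 LBN pups, and in cohort 2 there were 4 of each.

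Methylation places a methyl group on the cytosine of a CpG, and in mammalian tissue most CpGs of gene bodies and intergenic DNA carry it, while CpG-rich promoters mostly do not. A buccal swab collects epithelial cells of the cheek together with leukocytes. An intermediate level such as 60 to 75% means that some DNA molecules of the swab were methylated at that cytosine and others were not. A change in the mixture of cells and a change within cells cannot be told apart in these percentages. Reduced representation bisulfite sequencing (RRBS) reads CpGs near sites cut by the enzyme MspI, and each value is the percentage of reads that kept a methylated cytosine.

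The member with the widest spread between pups at P10, at chr17:70071395-70071396 (rn6), was annotated by the study to the promoter of Calml3, a calmodulin-like protein of epithelia. The RefSeq promoter of Calml3 is shown because this was the single annotated member placed at a promoter. It covers chr17:71331276-71331575 of the GRCr8 build on the plus strand, 300 bases around the annotated start, with CG in capitals.
Calml3 promoter: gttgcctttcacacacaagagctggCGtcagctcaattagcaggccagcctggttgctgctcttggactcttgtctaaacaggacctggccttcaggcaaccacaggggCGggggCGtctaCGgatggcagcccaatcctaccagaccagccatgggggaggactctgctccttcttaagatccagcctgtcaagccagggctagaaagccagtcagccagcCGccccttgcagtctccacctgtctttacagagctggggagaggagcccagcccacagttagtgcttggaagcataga
It holds 5 CG, against a median of 7 in the 33469 promoters of this length, and no CCGG on either strand, the MspI site, which 51.4% of those promoters hold. The builds differ, so the place of the measured CpG in this window is not known.

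At the lower bound, the members chr13:80642626-80642627 (60.02%) and chr5:151198902-151198903 (60.05%) were just inside the interval, and chr2:255195919-255195920 (59.99%) and chr1:81425933-81425934 (59.96%) were just outside. At the upper bound, chr18:63045877-63045878 (74.99%) and chr1:12834499-12834500 (74.96%) were inside, and chr4:85560574-85560575 (75.02%) and chr10:43628386-43628387 (75.03%) were outside.

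The median over the 589 sites was similar in all pups at P2 and differed between cohorts at P10. At P2 the pup medians ran from 65.1% through 67.6% to 71.4%, an interval that the rule itself narrowed. At P10 the 11 pups of cohort 1 lay between 64.6 and 72.5% (mean 68.0% ± 2.16, SD), and the 8 pups of cohort 2 between 54.1 and 64.9% (mean 59.1% ± 4.50, SD). Of the 8 cohort 2 pups, 2 reached into the range of cohort 1. Within cohort 1, control pups had a P10 mean of 66.7% ± 1.23 (SD, n = 6) and LBN pups 69.4% ± 2.19 (SD, n = 5), and in cohort 2 the values were 59.2% ± 4.22 and 59.1% ± 5.42 (SD, n = 4 each). All DMRs together also had lower values in cohort 2 at P10, with pup medians averaging 52.7% ± 4.29 in cohort 1 and 39.3% ± 3.03 in cohort 2. By the study's methods the cohorts were run on different dates and otherwise alike, so what went with the date, biological or technical, cannot be told apart.

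**Figure D1:**
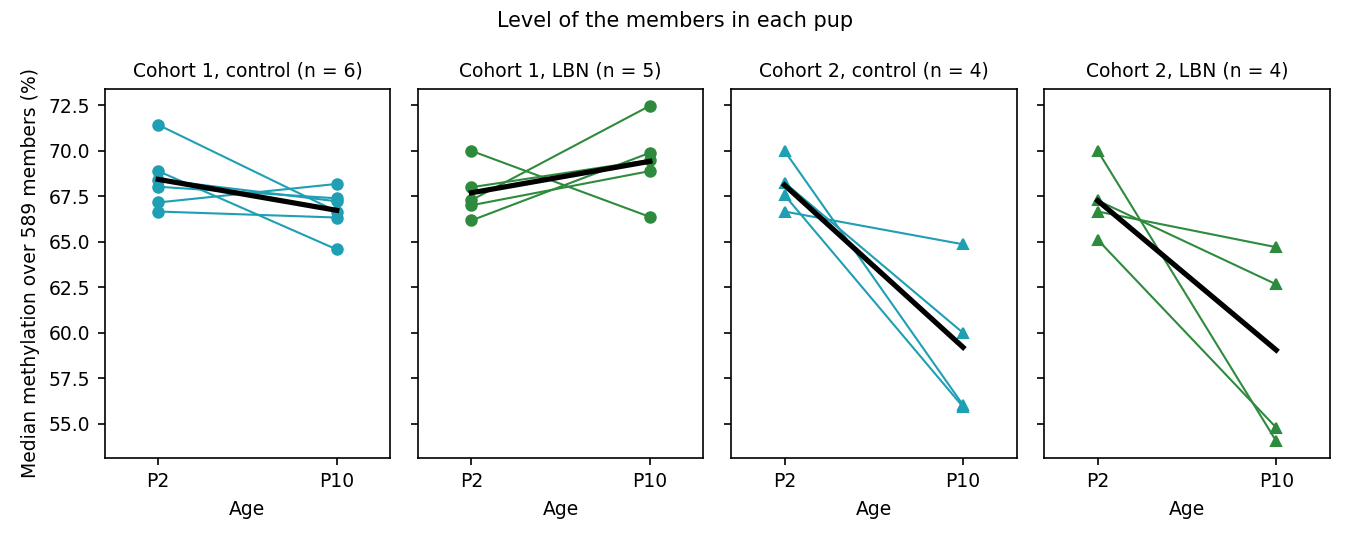
Median methylation in percent over the 589 single-CpG DMRs at P2 and P10 in each pup, by cohort and rearing, with each thin line a pup and the thick line the group mean. The y axis does not start at 0. At P10 cohort 2 averaged 59.1% and cohort 1 averaged 68.0%.

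From P2 to P10 the mean change per site had a median of −4.48 percentage points, with the middle 50% of sites between −12.6 and 3.42 and the full range from −31.8 to 17.8. Methylation was lower at P10 at 373 sites (63.3%), against 57.0% of all DMRs, whose median change was −1.85 points. By the P10 mean, 31 sites had gone below 45%, 224 lay at 45 to 60%, 248 stayed at 60 to 75% and 86 reached 75% or more. Single-CpG DMRs of 45 to 60% at P2 had a median change of −4.86 points, those of 75% or more −2.93, and longer DMRs of 60 to 75% −9.18. With limma on log-odds, pups kept as a block, 258 sites (43.8%) passed an adjusted p of 0.05, 56 higher and 202 lower at P10. The same test called 43.7% of all DMRs, 13.7% higher and 30.0% lower. The authors chose the DMRs for P2 to P10 differences in these pups and the P2 level chose the members, so nothing is read from these counts.

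**Figure D2:**
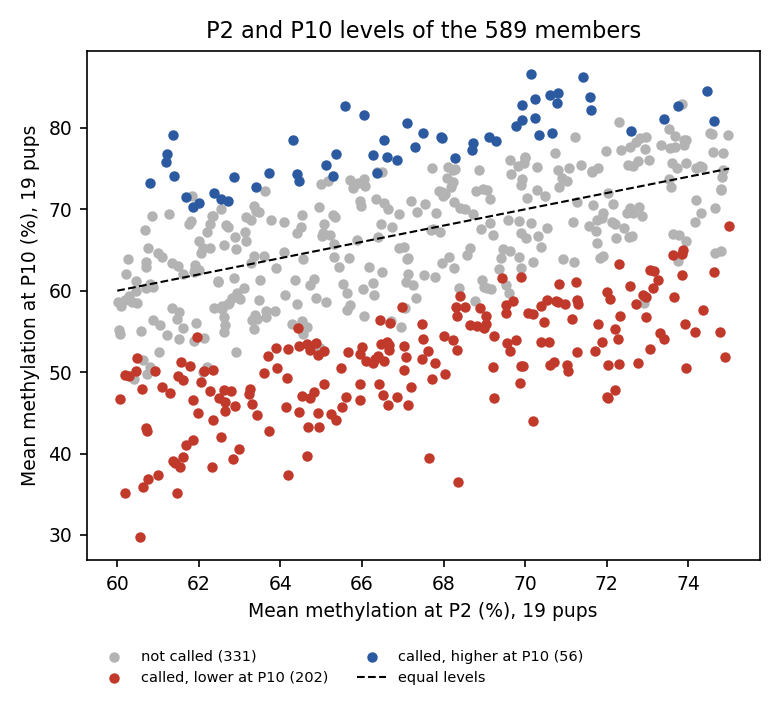
Mean methylation in percent at P2 (x) and P10 (y) of each of the 589 members over 19 pups, with the dashed line at equal levels. The 202 sites called lower (red) lie below the line and the 56 called higher (blue) above it, and the x axis is cut by the rule at 60 and 75%.

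In at least 17 of the 19 pups, 50 sites were lower at P10 (8.28% of all DMRs were), and 10 were higher (4.77% of all DMRs). The site with the deepest fall, chr4:122482785-122482786, ran from 50.0% through 71.4% to 93.5% at P2 (lowest, median, highest pup) and from 10.3% through 33.3% to 76.9% at P10. It fell in 18 of 19 pups, by a mean of 31.8 points ± 17.3 (SD). The next, chr10:57388840-57388841, went from a mean of 60.6% to 29.7%, with P10 values of 13 to 51.4% and P2 values of 40.5 to 71.4%. Both sets of P2 and P10 values overlapped, while almost every pup moved down.

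Of the 8 largest falls in at least 17 pups, 3 had an annotated gene. The study's annotation covered 52 of the 589 members, and the other 537 are given by position, with no statement on whether they lie in a gene. The site nearest Tmprss9, a membrane-anchored serine protease, at chr7:11701749-11701750, was intergenic and went from 67.6% ± 9.19 to 39.4% ± 10.5 (SD, 19 pups). The intergenic site nearest Ffar4, a receptor for long-chain fatty acids, at chr1:256766585-256766586, went from 61.5% ± 13 to 35.1% ± 11.8 and was lower in 18 pups. In an intron of Sipa1l3, which regulates the small GTPase Rap, chr1:87324200-87324201 went from 72.0% ± 13.6 to 46.8% ± 15. Among sites with no gene named by the study, chr18:3643192-3643193 was lower at P10 in all 19 pups, with P10 values of 23.3 to 47.6% and a median of 35.9% against a P2 median of 62.2%. The other 2 were chr11:42972214-42972215 (64.2 to 37.4%) and chr19:33863229-33863230 (64.6 to 39.7%), both lower in 18 pups.

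None of the 8 largest rises had an annotated gene. At chr12:2589423-2589424 the mean went from 65.6% ± 9.07 to 82.7% ± 7.83 and was higher in 18 pups. The site chr15:2914925-2914926 was higher at P10 in all 19 pups, from 60.9, 72.5 and 80.6% at P2 (lowest, median, highest) to 75.8, 84.2 and 93.5% at P10. The remaining 6 rose by means of 11 to 15.5 points and included chr3:59100650-59100651 (66.1 to 81.6%) and chr7:126159537-126159538 (71.4 to 86.3%).

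To follow the change in pups whose P2 levels did not enter the rule, it was applied to the P2 mean of a single cohort. The P10 minus P2 change was then tested in the other cohort. The authors chose all DMRs for P2 to P10 differences in pups of both cohorts, so only the P2 level was held out. Cohort 1 P2 levels chose 616 single-CpG DMRs, 500 of them among the 589. In cohort 2 these had a median change of −8.75 points (all DMRs −5.98), with 457 lower at P10 (74.2%, all DMRs 71.1%). The limma test called 189 of them (30.7%), 15 higher and 174 lower, against 27.6% of all DMRs in that cohort, 4.74% higher and 22.9% lower. Cohort 2 P2 levels chose 508, of which 419 were among the 589. In cohort 1 their median change was −1.73 points (all DMRs 1.34), and 281 were lower (55.3%, all DMRs 46.1%). The test called 132 (26.0%), 41 higher and 91 lower, against 25.8% of all DMRs, 10.3% higher and 15.5% lower. Leaving out control 12, control 7 or LBN 2 of cohort 1 lowered this count to 70, 70 and 73, respectively.

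Within the 589 sites, the mean change had a median of −0.06 points in cohort 1 and −9.15 in cohort 2. The change had the same direction in both cohorts at 426 sites (72.3%, all DMRs 67.6%), 286 lower and 140 higher, while 152 were higher in cohort 1 and lower in cohort 2 and 11 the reverse. Across the 589 sites the mean changes of the cohorts correlated with r = 0.55 (r = 0.58 over all 3417), a description over sites measured in the same libraries. Alone, cohort 1 gave 157 calls and cohort 2 gave 181, and 63 sites were called in both, which was 40.1% of the cohort 1 calls and 34.8% of the cohort 2 calls. Over all DMRs the shares called were 25.8% and 27.6%, and 372 were called in both, 42.3% and 39.4% of the calls. The overlap among members was not tested against these shares, and nothing is read from the gap. Of the 63, 52 were lower and 8 higher in both cohorts, and 3 were opposite.

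The change itself differed between cohorts at 25 sites (4.24%), more negative in cohort 2 at 24 of them and less so at 1 (limma interaction of age and cohort, adjusted over all DMRs). Over all DMRs the test called 2.40%, 2.34% more negative and 0.0585% more positive in cohort 2. Of the 25, 16 were higher at P10 in cohort 1 and lower in cohort 2, 7 were lower in both, 1 was higher in both and 1 was lower in cohort 1 and higher in cohort 2. Their median mean P10 level was 69.7% in cohort 1 and 43.5% in cohort 2, from 65.6% and 71.4% at P2. The number depended on single pups. It was 4 to 14 when any of 14 pups was left out, 70 without control 6 of cohort 1, 59 without control 9 of cohort 1 and 52 without control 11 of cohort 2.

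The site chr14:64708040-64708041 had changes of −22.1, 13.6 and 35.8 points (lowest, median, highest) in the 11 cohort 1 pups and −44.1, −27.7 and −9.67 points in the 8 cohort 2 pups. It was lower at P10 in 1 cohort 1 pup and in all 8 cohort 2 pups, and the difference in log-odds change was −2.54 ± 0.45 (SE, limma adjusted p = 0.00655). At chr7:123193351-123193352 the direction was the other way, with a mean of −24.8 ± 10.5 points in cohort 1 and 7.94 ± 13.7 in cohort 2 (SD; log-odds difference 2.30 ± 0.44, SE, limma adjusted p = 0.00655). All 11 cohort 1 pups and 1 cohort 2 pup fell there. The other 2 with the smallest p, chr2:141390995-141390996 (5.37 against −29.3 points) and chr2:47006366-47006367 (15.7 against −22.4 points), were lower in all 8 and in 7 of 8 cohort 2 pups.

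Only 3 of the 25 had an annotated gene. In an intron of Golga7b (chr1:261505898-261505899) methylation went from 69.0 to 57.7% in cohort 1 and from 71.8 to 25.3% in cohort 2 (limma adjusted p = 0.0305). Near Mos, a kinase of oocyte meiosis (intergenic, chr5:16734196-16734197), it went from 56.1 to 46.4% and from 65.8 to 19.6% (limma adjusted p = 0.0333). In an intron of Hs2st1, a heparan sulfate sulfotransferase (chr2:250507231-250507232), it went from 65.1 to 88.4% in cohort 1 and from 69.9 to 70.0% in cohort 2 (limma adjusted p = 0.0412). Cohort 2 was thus the lower at P10 at all 3 sites.

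**Figure D3:**
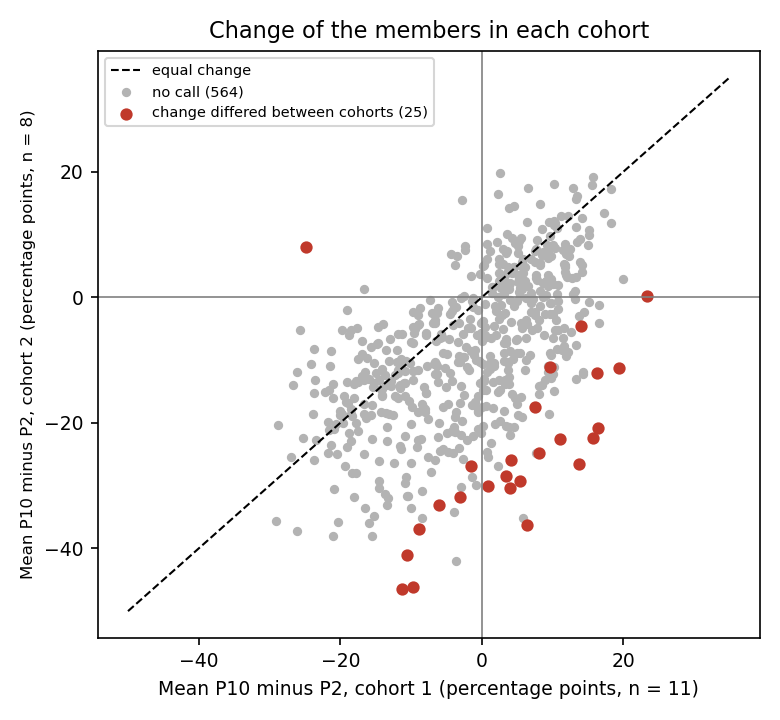
Mean P10 minus P2 change in percentage points of each of the 589 members in cohort 1 (x, 11 pups) and cohort 2 (y, 8 pups), with the dashed line at equal change. The 25 sites whose change differed between cohorts are red, 24 of them below the line and 1 above it.

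LBN and control pups were compared at P10 to ask whether the week of rearing left a difference in level. With cohort as a covariate, no member passed an adjusted p of 0.05 in limma, as was so for all DMRs (0.0%), and the smallest adjusted p among members was 0.482. At an unadjusted p under 0.05 there were 48 members (8.15%), 25 higher and 23 lower in LBN, against 9.86% of all DMRs. The median standard error was 0.33 on the log2-odds scale. In data simulated from all 3417 DMRs with 200 planted differences, this test recovered 48.5% of differences of 1 and 96.0% of differences of 2.

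The 6 members with the smallest p at P10 included 2 with an annotated gene, and these are listed by rank and not as calls. In an intron of Net1, an exchange factor for the small GTPase RhoA (chr17:70016933-70016934), control pups had 17.7, 37.5 and 56.5% (lowest, median, highest) and LBN pups 21.6, 59.1 and 79.0% (limma log-odds difference 1.20 ± 0.34, SE, adjusted p = 0.482). The groups overlapped over all pups, although in cohort 1 all 5 LBN values (59.1 to 79.0%) were above all 6 control values (21.7 to 56.5%), and in cohort 2 LBN pups lay at 21.6 to 42.9% and control pups at 17.7 to 39.8%. Near Bmp8b, a ligand of the bone morphogenetic protein (BMP) family (intergenic, chr5:140797172-140797173), the control values were 64.9, 76.9 and 90.9% and the LBN values 30.6, 66.7 and 81.2% (−1.06 ± 0.35, SE, limma adjusted p = 0.482). With no gene named, chr9:91958505-91958506 had control values of 71.1, 92.9 and 100% and LBN values of 68.3, 75 and 88.9% (−2.03 ± 0.55, SE, limma adjusted p = 0.482). The other 3 were chr7:118417009-118417010 (81.5 against 68.9% in LBN), chr9:119097406-119097407 (40.1 against 53.7%) and chr3:147050542-147050543 (53.2 against 67.9%). At the last of these, control and LBN means were 58.4 and 84.7% in cohort 1 and 45.3 and 46.8% in cohort 2. LBN pups already had the higher mean there at P2 in both cohorts, before the rearing differed.

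Within cohort 1 alone the P10 test called 42 members (7.13%), 24 higher and 18 lower in LBN, against 12.0% of all DMRs, 7.52% higher and 4.45% lower. Their differences of means ran from −25.8 to 29.1 points, with a median size of 19.8. In cohort 2 alone it called none (13 at an unadjusted p under 0.05, 2.21%, against 1.32% of all DMRs), and the same 42 sites had the same sign there at 15 sites and a median size of 2.91 points. At P2 of cohort 1, before the rearing differed, 31 of the 42 had the same sign as at P10. A share over all DMRs was not computed for this. Genes were annotated for 5 of the 42, which were Capn8, Net1, Calml3, Bmp8b and Tmco4. A direct test of whether the LBN difference at P10 differed between cohorts called no member in limma (91 at an unadjusted p under 0.05, 15.4%, against 23.6% of all DMRs), with a smallest adjusted p of 0.154. In the simulation this test recovered 0% of planted differences of 1 and 48.5% of differences of 2. The absence of calls therefore does not show that the cohorts were alike.

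At P2, before the rearing differed, no member was called between the pups later assigned to LBN and to control (smallest limma adjusted p 0.354, all DMRs 0.0%). Unadjusted, 70 members (11.9%) had p under 0.05, 22 higher and 48 lower in the LBN pups, against 13.4% of all DMRs. The smallest p was at chr2:23449350-23449351, where control pups had 50.6, 74.8 and 93.3% and LBN pups 32.6, 47.7 and 80.3%, and the P10 means were 46.8 and 45.9%. At chr6:43151300-43151301 the P2 means were 70.2 and 53.7%, and at chr12:51661056-51661057 they were 76.6 and 62.4%. Another of the smallest p, chr3:147050542-147050543, was also named for P10. Its control and LBN means at P2 were 64.5 and 74.5% in cohort 1 and 62.7 and 75.8% in cohort 2. In cohort 2 alone the P2 test called 68 members (11.5%), 2 higher and 66 lower in LBN, against 14.0% of all DMRs, 4.33% higher and 9.69% lower. Those 68 had a median difference of −20.4 points at P2 in cohort 2, −0.77 points at P2 in cohort 1 and 6.32 points at P10 in cohort 2. Genes were annotated for 6 of them, Ercc1, RGD1307603, Snx29, Etv4, Fance and Pcnx1.

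The change within each pup was then compared as delta methylation, the log2 ratio of P10 to P2, for the 586 members without a level of 0. None was called between LBN and control in limma (all DMRs 0.0%, smallest adjusted p 0.9999), and 20 (3.41%) had an unadjusted p under 0.05, 14 higher and 6 lower in LBN, against 3.25% of all DMRs. The simulation recovered 73.0% of planted differences of 1 among all DMRs. For this test it planted only lower values in LBN, so it does not give the recovery of higher ones. At the Tmprss9 site, delta methylation was −1.60, −1.03 and −0.30 in control pups (lowest, median, highest) and −1.09, −0.71 and 0.25 in LBN pups, a difference of 0.55 ± 0.16 (SE). Both cohorts had the smaller fall in LBN, with means of −0.87 and −0.25 in cohort 1 and −1.36 and −0.90 in cohort 2. The site was named for its p over both cohorts together, so the shared direction is not independent support. In an exon of Fance, a protein of the Fanconi anaemia DNA repair pathway (chr20:7896779-7896780), the values were −1.68, −0.57 and 0.26 in control and −0.32, 0.07 and 0.67 in LBN pups, a difference of 0.79 ± 0.23 (SE). In an intron of Tcf4, a basic helix-loop-helix transcription factor (chr18:65476772-65476773), they were −0.12, 0.46 and 0.79 in control and −0.26, 0.00 and 0.43 in LBN pups, a difference of −0.36 ± 0.12 (SE). The values of the groups overlapped at all 3. The study's selection could admit a DMR through its change in a single rearing group, so these sites were not chosen blind to the comparison.

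Before the rearing differed, LBN pups had the lower P2 mean at the Tmprss9 site in both cohorts. Its P2 means were 67.8 and 73.6% in control pups of cohorts 1 and 2 and 61.1 and 69.6% in LBN pups. At Fance the P2 means were 77.3 and 78.1% in control pups of cohorts 1 and 2 and 61.9 and 55.5% in LBN pups. Tcf4 had P2 means of 60.1 and 71.8% in control and 72.5 and 78.9% in LBN pups. Without an annotated gene, chr9:91958505-91958506 (0.51 ± 0.34 in control, −0.04 ± 0.32 in LBN, SD), chr16:82702803-82702804 (0.25 ± 0.57 and −0.26 ± 0.31) and chr1:142384763-142384764 (−0.51 ± 0.32 and −0.11 ± 0.28) completed the 6 smallest p. In cohort 2 alone, 1 member was called, higher in LBN, chr15:40479196-40479197. Of all DMRs 0.325% were called, 0.148% higher and 0.177% lower. Its delta methylation was −1.11 ± 0.46 in control and 0.52 ± 0.19 in LBN pups (SD, difference 1.63 ± 0.26, SE, limma adjusted p = 0.0477). Its P2 means were 83.4 and 45.2% there and its P10 means 40.8 and 66.1%, and in cohort 1 delta methylation averaged −0.11 and −0.61, the opposite order.

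**Figure D4:**
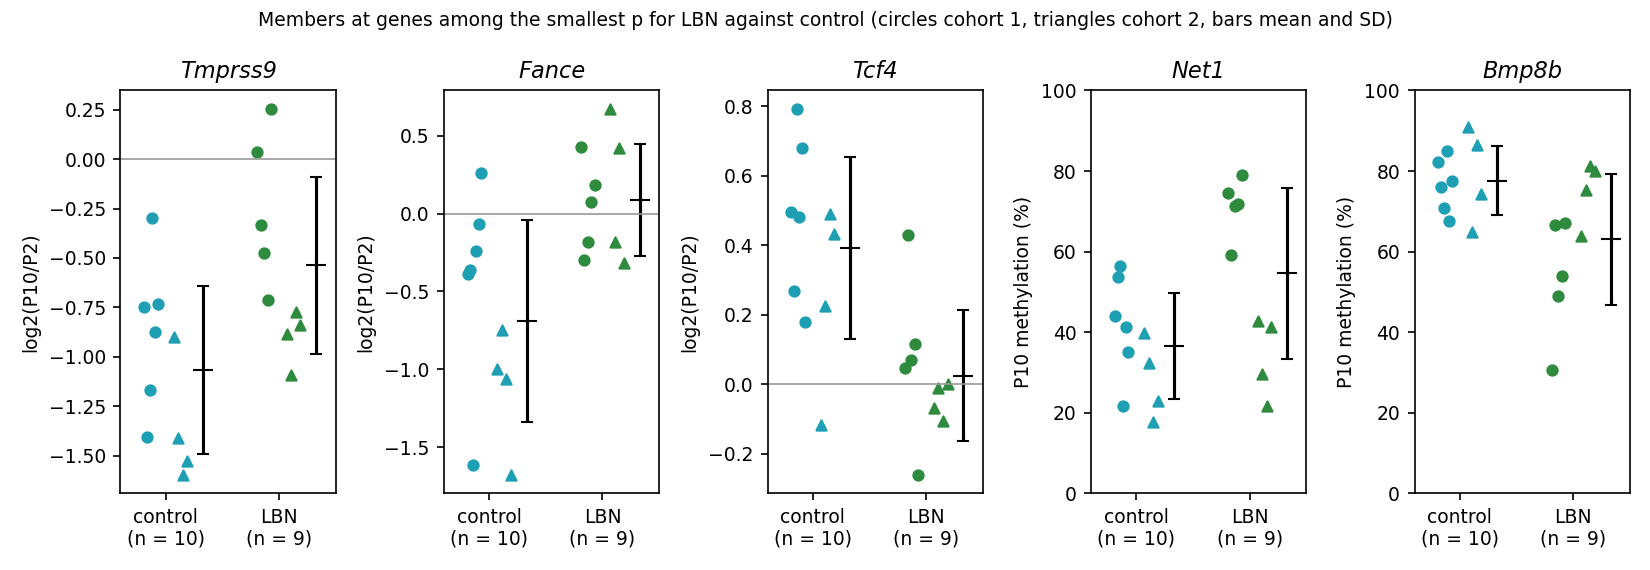
Delta methylation, log2(P10/P2), at Tmprss9, Fance and Tcf4 and P10 methylation in percent at Net1 and Bmp8b in each pup, with circles for cohort 1, triangles for cohort 2 and bars for mean and SD. Control (n = 10) and LBN (n = 9) values overlap in all 5 panels and none passed the adjusted threshold.

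A gene was annotated for 28 of the 589, all taken from the study's annotation of DMRs that it had picked on these same samples for their weight in separating age or experience, so their directions are not independent evidence. Another 24 members were in that annotation without a gene. Of the 28, 17 were in introns, 5 were intergenic, 3 in exons, 2 at transcription ends and 1 at a promoter. By the age test, 17 were called lower and 3 higher at P10 (43.7% of all DMRs called), from which nothing is read.

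Among ligands and receptors, the BMP and TGF-beta sites had mean changes of −4.76 to 3.17 points. Bmp7, a BMP ligand, held 67.7% ± 7.84 at P2 and 67.6% ± 12.8 at P10 in an intron site. Bmp8b went from 67.5 to 70.7% and Tgfbr3, the TGF-beta co-receptor betaglycan, from 62.6 to 57.8%, and none of the 3 was called. They were the 3 members among the 12 listed DMRs at genes of Wnt, TGF-beta and growth factor signalling. Kit, the receptor of stem cell factor, went from 63.2% ± 7.64 to 47.3% ± 13.6 at an intron site. Mc5r, a melanocortin receptor of exocrine glands, had 71.8% ± 14.6 and 68.7% ± 16.2.

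Of 4 sites at transcription regulators, 3 had a lower mean at P10. Runx1, a factor of blood formation, went from 65.5% ± 14.1 to 45.7% ± 13.9 in an intron and was the single member among 21 listed DMRs at other developmental factors. Etv4, an ETS factor, went from 62.6 to 45.2% in an exon, and Skil, a repressor of SMAD signalling, from 71.3 to 52.5% in an intron. Tcf4 went the other way, from 69.8 to 80.2%. No member lay at the 21 listed DMRs of homeobox factors, the 5 of epithelial genes, the 10 of leukocyte genes, the 3 of the DNA methylation machinery or the 1 of the defining cell type markers, and no listed DMR lay at a stress axis gene. The cell content of the swabs was therefore not checked from these sites.

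Among the remaining genes, Ercc1, a subunit of a DNA repair endonuclease, went from 69.6 to 52.5% at its transcription end, and Capn8, a calpain protease, from 71.1 to 50.2%. Nedd4, a ubiquitin ligase, had 72.9% ± 13.2 at P2 and 58.4% ± 23.5 at P10. Pcnx1 went from 60.7% ± 15.2 to 42.8% ± 11.4, lower in 14 of 19 pups. Atxn2, an RNA-binding protein, went from 61.4 to 74.1% in an exon, by 19.9 points in cohort 1 and 2.85 in cohort 2, and Hs2st1 from 67.1 to 80.6%. Of the 28 genes, a higher P10 mean was seen at Atxn2, Tcf4, Hs2st1, Atxn10 and Bmp8b. For Bmp8b it came from the cohort 1 control pups (60.4 to 76.6%), while the means of cohort 1 LBN (56.3 to 53.4%), cohort 2 control (81.6 to 79.1%) and cohort 2 LBN pups (78.2 to 75.1%) were lower at P10. For Atxn10 the mean change was 16.6 points in cohort 1 and −1.25 in cohort 2.

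The spread between pups was larger at P10 than at P2 at 388 of the 589 sites, with a median SD of 12.4 and 10.8 points. Over all DMRs the median SD was also larger at P10, at 11.8 points against 10.6 at P2. Within the 4 groups of cohort and rearing the median SD was 10.6 at P10 and 9.78 at P2, with 329 sites larger at P10. No member separated LBN from control without overlap at P2, at P10 or in its change (0.0% of all DMRs for each). The cohorts did not overlap at P10 at 21 of the 589 sites, cohort 2 the lower at each, against 199 of all 3417 DMRs (5.82%). They did not overlap at 2 sites at P2 (0.38% of all DMRs, cohort 2 again lower) and at no site in the change (0.0585%).

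Calml3 had the widest spread at P10, from 66.6% ± 19 at P2 to 45.9% ± 27.1. In cohort 1 its P10 values were 34.2, 34.7, 50.6, 62.1, 63.6 and 65.6% in control pups and 67.7, 77.8, 78.2, 87.1 and 89.8% in LBN pups. In cohort 2 they were 16.7, 19, 25 and 33.3% in control and 10.4, 10.5, 19.1 and 26.7% in LBN pups. All 8 cohort 2 pups were below all 11 of cohort 1. The LBN and control values did not overlap in cohort 1 and overlapped in cohort 2. At P2 the cohort 1 means were 80.7% in control and 77.4% in LBN pups, and those of cohort 2 were 54.1 and 44.7%. The LBN difference at P10 was 1.96 ± 0.43 (SE) in log-odds in cohort 1 alone (limma adjusted p = 0.0364) and −0.65 ± 0.47 in cohort 2 alone (limma adjusted p = 0.9999). The difference between those was −2.60 ± 0.67 (SE, limma adjusted p = 0.154) and did not pass the threshold. Net1 lies 54462 bases from it on the same chromosome. In cohort 1 its P10 means were 42.1% ± 12.7 in control and 71.2% ± 7.42 in LBN pups (SD), in the same order as Calml3. In cohort 2 the orders were opposite, with control and LBN means of 28.2 and 33.8% at Net1 and 23.5 and 16.7% at Calml3. Both sites were named for their P10 values, so the shared order in cohort 1 is not independent support.

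The second, chr2:31838008-31838009, ranged at P10 from 25 to 96.8% in cohort 1 and from 14.6 to 48.6% in cohort 2, with P2 means of 67.2 and 66.6%. At chr12:14268639-14268640, 2 LBN pups of cohort 1 had 2.78 and 3.85% at P2 and 0% in both at P10. Every other pup had 52.9 to 87.7% at P2 and 42.4 to 90.0% at P10, so the same 2 pups stood apart at both ages. At the narrow end, chr14:46596731-46596732 had 66.8 to 78.2% at P10 (SD 3.21) and 66.4 to 81.0% at P2 (SD 3.84). The SD at P10 was 3.69 points at chr7:143603677-143603678 and 4.46 at chr5:135685391-135685392, where the mean was 69.9% at P2 and 81.0% at P10.

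**Figure D5:**
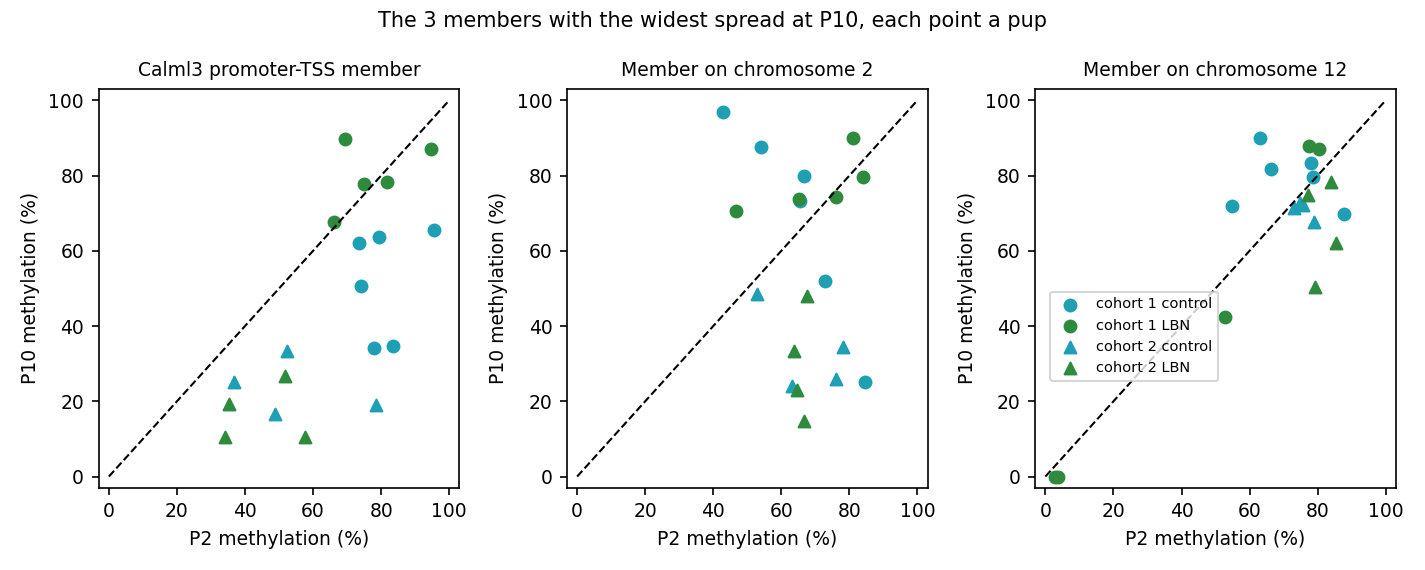
P2 (x) and P10 (y) methylation in percent of each pup at the 3 members with the largest SD over the P10 samples, with the dashed line at equal levels. At Calml3 the 8 cohort 2 pups (triangles) lie at 10.4 to 33.3% on the P10 axis, and at the chromosome 12 site 2 LBN pups of cohort 1 lie near 0 at both ages.

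Few members lay close to another DMR. Within 1000 bases of any DMR were 17 members (2.89%), against 4.66% of single-CpG DMRs, and within 10000 bases were 57 (9.68%, against 13.5%). The median distance to the nearest DMR was 107417 bases. Only 3 pairs of members lay within 10000 bases of each other, 1628 and 6458 bases apart on chromosome 1 and 1411 bases apart on chromosome 10, and the mean was higher at P10 at all 6 sites, by 5.93 to 14.6 points. Of all 2510 single-CpG DMRs, 589 were members. By autosome, the lowest share was 11.6% on chromosome 19 (11 of 95) and the highest 41.4% on chromosome 18 (24 of 58). The other autosomes ran from 17.9% on chromosome 1 to 31.6% on chromosome 13, and no difference between chromosomes was tested. On the X chromosome lay 2 members.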

How the data were processed

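Buccal swab DNA of 19 rat pups at P2 and P10 (38 samples) was measured by RRBS. The authors trimmed reads with Trim Galore 0.4.3, aligned and called CpGs with Bismark 0.16.3 on rn6 and retained CpGs covered by over 10 reads. They called P2 to P10 differences per pup with methylKit. By their methods, sites were kept when pups of the control group or of the LBN group shared the difference, so a DMR could enter through a single rearing group. Sites within 100 bases were merged. The percent methylation of 3417 DMRs was deposited by cohort, with a deposited delta methylation on a log2 scale, log2 of P10 over P2. Read depth per value is unknown, so no interval from counts is given, and low or uneven depth adds unmeasured error to a single-CpG percentage.

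Levels were tested as log2((percent + 1)/(100 − percent + 1)), called log-odds. Delta methylation was computed as log2(P10/P2) from the deposited percentages, for DMRs without a level of 0. Tests used limma 3.58.1 in R 4.3.3 over all DMRs with a value and Benjamini-Hochberg adjusted p under 0.05. The P10 minus P2 test blocked on pup, LBN minus control had cohort as covariate, and interactions tested differences between cohorts. Pups were paired by name. For levels at a single age, p-values measure the spread between pups. For the P10 minus P2 change and delta methylation, they measure the spread of the change between pups. None measures the spread between cages. The scripts were tested on simulated data. Members and gene lists were chosen with earlier results of these data known. Named sites were the 8 largest falls and rises called in the same direction in at least 17 of 19 pups, the smallest p for LBN in delta methylation (6), at P10 (6) and at P2 (4), for cohort (4), the nearest to each bound, genes of the lists or of the study's text, and the 3 largest and smallest SD at P10. The sites of the cohort 1 and cohort 2 calls, and further genes of the annotation, were named after their values were seen. Alternatives were other offsets, percentage points, a filter on low values, limma with trend and robust settings, each cohort alone, each pup left out and the rule on the mean of the cohort means. Gene names came from the study's annotation. No rn6 genome was used here.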

Additional observations from a re-analysis of the deposited data

Results flagged for a closer look

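The P2 to P10 change differed between cohorts, by the interaction of age and cohort in limma, at 25 of the 589 sites. The 4 with the smallest p had differences in log-odds change, cohort 2 minus cohort 1, of −2.537 at chr14:64708040-64708041, 2.304 at chr7:123193351-123193352, −2.173 at chr2:141390995-141390996 and −2.692 at chr2:47006366-47006367. The cohorts were run on different dates, and what went with the date cannot be told apart. Of 57 groups of 4 to 10 pups examined, 0 had a sample far from the others. That count does not mean that no named site held outlying pups. At the chromosome 12 site with large spread at P10, LBN pups 12 and 2 of cohort 1 had 2.78 and 3.85% at P2. Both had 0% at P10, apart from every other pup.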

How the results depend on the processing

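Counts of called members kept within 1.5 times their value except as follows. Each cohort has fewer pups than the whole, and cohort 1 alone gave 157 calls between P2 and P10 in place of 258. For LBN against control, the count of 0 became 42 at P10 in cohort 1 alone, 68 at P2 in cohort 2 alone and 1 in delta methylation in cohort 2 alone. Tested in percentage points, 38 members in place of 25 had a change that differed between cohorts, and the cause was not tested. Leaving out each pup in turn, that count ran from 4 to 70 and the count of age calls from 234 to 263. The median change ran from −4.99 to −3.68 points, and each count for LBN stayed at 0. With the rule on the P2 levels of the other cohort, the calls ran from 70 to 195 in cohort 1 and from 132 to 215 in cohort 2. The last leave-outs in the other cohort were chosen after seeing the data. In a single cohort, among the sites named by rank in the same comparison, 4 age differences lost the threshold, and 5 LBN differences at P10 and 2 at P2 passed it. None of those changed sign, but over all 59 sites named for any reason or with an annotated gene the cohorts alone had opposite signs at 14 for P10 minus P2, 24 for LBN at P10, 22 for LBN at P2 and 25 for delta methylation. For samples with the same number in control and LBN groups, the mean r at P10 was −0.041 over 5 pairs, from −0.404 to 0.330. So few pairs cannot show whether a shared number links pups, and the numbers were used as names. A fit with the number as replicate block called 0 members at P10, at P2 and in delta methylation. Only the same 5 pairs hold both groups in that fit, so it cannot settle this either. Without the pup block, 280 members were called between P2 and P10. Unknown read depth limits each single-CpG value.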
